A study of Mus musculus with 11 samples.

Results

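Inflammasome sensors and effectors were followed through the classical dendritic cells (cDCs) of mouse spleen as a group of 9 genes: the sensors Nlrp3, Nlrc4, Nlrp1b, Naip2 and Naip5, the caspases Casp1 and Casp4, the pore-forming effector Gsdmd and the cytokine Il18. The genes were chosen by name for their roles, and each was read from the probe set that carries that gene symbol alone, taking the one with the highest mean over all arrays where there were several. All 9 were measured, out of 19938 genes on the array, and each of the 9 had 1 such probe set, so no choice between probe sets was needed. RNA was hybridised to 11 Affymetrix arrays. The groups were CD172a+ cDCs labelled Zeb2-deficient, of genotype Zeb2(fl/fl);CD11c-Cre(tg) (4 arrays), CD24+ cDCs of Zeb2(fl/fl) mice labelled Zeb2-sufficient (3 arrays), and CD172a+ cDCs of the same Zeb2(fl/fl) genotype (4 arrays). All groups carried the floxed Zeb2 alleles on a C57BL/6 background and came from spleens digested with collagenase B and DNase I and sorted by flow cytometry. The labels give no ages. CD11c-Cre is a transgene driven by the CD11c promoter, which is active in dendritic cells and some other myeloid cells. It was present in the labelled Zeb2-deficient mice and in no control mice, so an effect of the transgene and one of the Zeb2 deletion cannot be told apart in these arrays.

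Inflammasomes are protein complexes that form in the cytosol when a sensor meets a microbial product or a sign of cell damage. The sensor recruits and activates caspase-1, directly or through the adaptor ASC, and the caspase then cleaves the precursors of interleukin-1β and interleukin-18 and the pore-forming protein gasdermin D. In a second route, caspase-11, encoded by Casp4 in the mouse, binds lipopolysaccharide in the cytosol and cleaves gasdermin D itself. In the spleen, CD24+ cDCs (cDC1) are known for cross-presenting antigen to CD8+ T cells and CD172a+ cDCs (cDC2) for presenting antigen to CD4+ T cells. ZEB2 is a zinc-finger transcription factor, mostly a repressor, that binds E-box sequences.

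Promoter sequences are shown for the 3 members whose arrays did not overlap between the 2 control cDC subsets, as the stretch of 250 bases just upstream of an annotated start site. They are given 5′ to 3′ on the strand of the gene, from RefSeq on GRCm38.p6, and capitals mark GAGGAA on either strand, the core of many PU.1 and other ETS-factor sites.
Nlrc4, chr17:74459109-74459358, minus strand: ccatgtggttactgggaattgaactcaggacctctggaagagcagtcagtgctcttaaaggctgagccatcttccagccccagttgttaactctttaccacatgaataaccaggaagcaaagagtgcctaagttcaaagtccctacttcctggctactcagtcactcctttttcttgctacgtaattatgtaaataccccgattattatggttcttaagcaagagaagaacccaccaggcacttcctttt
Casp1, chr9:5298267-5298516, plus strand: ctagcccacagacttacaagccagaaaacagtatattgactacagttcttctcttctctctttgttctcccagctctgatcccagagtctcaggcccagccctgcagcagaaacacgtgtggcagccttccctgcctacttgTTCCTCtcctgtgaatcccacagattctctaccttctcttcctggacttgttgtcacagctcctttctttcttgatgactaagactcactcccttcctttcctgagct
Nlrp3, chr11:59542436-59542685, plus strand: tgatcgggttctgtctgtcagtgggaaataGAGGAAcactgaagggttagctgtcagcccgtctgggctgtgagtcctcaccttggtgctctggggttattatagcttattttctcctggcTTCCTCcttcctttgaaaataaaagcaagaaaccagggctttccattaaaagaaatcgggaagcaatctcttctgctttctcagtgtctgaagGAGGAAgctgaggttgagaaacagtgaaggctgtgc
The table of promoters held 11 start-site windows for 8 of the 9 members, and Gsdmd had no entry. Only the 250 bases before the start site were searched in each window, so counts of windows below refer to that stretch. CACCTG, an E-box of the kind ZEB proteins bind, was searched on both strands and matched in 0 of the 11 windows, against 17.2% of all 32851 windows in the table. The composite ETS and IRF element (GGAA and GAAA with any 2 bases between them) matched in 0 of 11 on either strand, against 2.30% of all windows. The IRF element of GAAA repeated after any 2 bases also matched in 0 of 11, against 2.98% of all windows. These 3 motifs do not overlap the capitals above, and the absence of a match says only that these letters are not in these windows. GAGGAA was searched after those 3 had given no match, and it was found in 3 of the 11 windows, against 23.3% of all windows. The matching windows belonged to Casp1 (first base at -108 from the start site, minus strand), Nlrp3 (-220 and -36 on the plus strand and -129 on the minus strand) and Nlrp1b (-96, plus strand). Nlrp3 and Nlrp1b each had another start-site window with 0 matches of GAGGAA, and that of Nlrp3 is not printed above. A match is a description of the sequence.

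The Zeb2 probe set did not follow the genotype labels. Zeb2 measured 8.52, 8.32, 9.07 and 9.24 (log2 expression) on the labelled Zeb2-deficient CD172a+ arrays, 5.19, 5.08 and 5.52 on the control CD24+ arrays, and 8.23, 8.23, 8.26 and 8.61 on the control CD172a+ arrays. The labelled Zeb2-deficient arrays were 0.45 above the control CD172a+ arrays rather than below them (exact permutation test, two-sided, p = 0.171; limma adjusted p = 0.998). The sources used here do not place the probe set inside or outside the deleted part of Zeb2, and a probe set outside it would check nothing, so these arrays are named by their label, as labelled Zeb2-deficient. The subset labels were followed: in control CD24+ relative to control CD172a+ arrays, 8 of 9 cDC1 markers were higher and 9 of 9 cDC2 markers were lower, and of 6 pan-cDC markers 0 passed the limma threshold of adjusted p below 0.05. A first principal component with 62.1% of the variance within groups split the arrays into 2 sets, found from the values and not from any label. Array set 1 held labelled Zeb2-deficient replicates 1 and 2, control CD24+ replicate 1 and control CD172a+ replicates 1 and 2, and array set 2 held the other 6 arrays. Because the sets were taken from the spread within groups, every fit below that uses them can give p-values that are too small. On the second component (10.0% of the variance) control CD172a+ replicate 3 stood apart at 27.4, with the other arrays between -13.7 and 9.06. Nothing in the labels states that replicates of a group came from different mice, so the tests below gauge differences against array-to-array spread that may be technical.

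Values below are log2 expression per probe set, so 1 unit is a doubling. Probe sets differ in how well they bind, so levels are compared between groups for one gene and never between genes. The median gene lay at 5.54 in the labelled Zeb2-deficient group, 5.49 in control CD24+ cells and 5.52 in control CD172a+ cells. Near and under that level RMA, the method behind the values, shrinks differences, and a fold there is not an exact ratio.

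**Figure D1:**
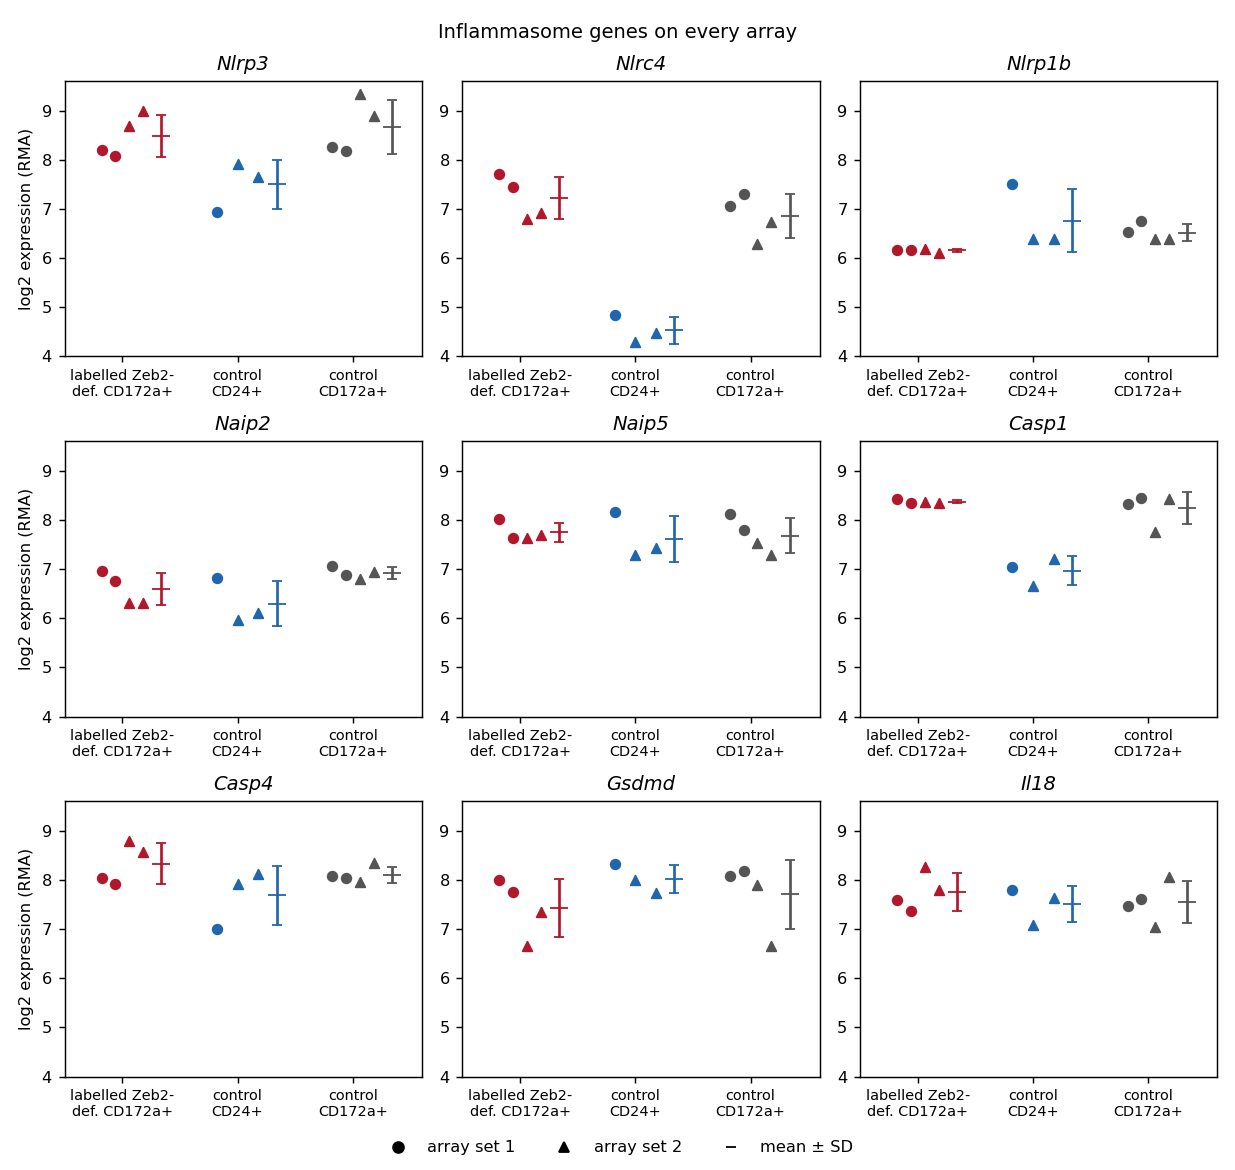
Log2 expression (RMA) of the 9 inflammasome genes on each of the 11 arrays, with labelled Zeb2-deficient CD172a+, control CD24+ and control CD172a+ cDCs from left to right in each panel; circles are array set 1, triangles array set 2, and bars the mean ± SD (n = 4, 3 and 4). The control CD24+ arrays of Nlrc4 (4.30 to 4.84) and Casp1 (6.64 to 7.21) sit below every CD172a+ array of either genotype, while the values of Naip5, Gsdmd and Il18 overlap in all 3 groups.

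Setting control CD24+ cDCs against control CD172a+ cDCs asked how the inflammasome machinery differs between the splenic cDC subsets. Nlrc4, the sensor that works with NAIP proteins, and Casp1, the effector caspase, were lower in CD24+ cells, by 2.31 and 1.27 on the log2 scale. Nlrp3 averaged 1.16 lower without passing the threshold, and its arrays did not overlap. Il18 and Naip5 differed by less than the spread between arrays. By limma, 2 of the 9 members were lower and 0 were higher at adjusted p below 0.05, against 3.16% of all genes lower and 6.41% in either direction. The median difference of the 9 was -0.41, beside -0.017 over all genes. For 3 of the 9 members no array of one subset reached into the range of the other, against 14.6% of all genes. In a bulk sample, a lower value from fewer cells that express a gene and one from less RNA per cell cannot be told apart.

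Among the sensors, Nlrc4 forms an inflammasome after a NAIP protein has bound flagellin or a secretion-system protein. It measured 4.84, 4.30 and 4.47 in control CD24+ cells, against 7.07, 7.31, 6.28 and 6.73 in control CD172a+ cells. Every CD24+ array lay below every CD172a+ array, and all 3 lay below the median gene, while all 4 CD172a+ arrays lay above it. The difference was -2.31 (SE 0.274, 95% interval -2.92 to -1.71; limma adjusted p = 0.000322), nominally a 4.97-fold lower level. It was -2.36 within array set 1 and -2.12 within array set 2. Without control CD172a+ replicate 3 it was -2.50 (limma adjusted p = 0.000274), and over the 11 fits that each left out 1 array it ran from -2.50 to -2.16.

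Nlrp3, the sensor of potassium efflux and many forms of cell stress, measured 6.95, 7.91 and 7.65 in control CD24+ cells, against 8.25, 8.18, 9.33 and 8.89 in control CD172a+ cells. The CD24+ arrays all lay below the CD172a+ arrays, and in both groups the arrays of set 2 read higher than those of set 1. The difference of -1.16 (SE 0.330, 95% interval -1.89 to -0.44) had a limma adjusted p of 0.0661. An exact two-sided permutation test gave p = 0.0286, the smallest that 3 against 4 arrays allow, which restates the lack of overlap. Within sets the difference was -1.27 and -1.34. Once the array set entered as a block it was -1.30 (SE 0.127; limma adjusted p = 1.67e-05), and it passed in all 11 fits with the block that left out 1 array. The sets were found from these same values and not found anew in those 11 fits, so these p-values can be too small.

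Naip2 recognises the inner rod of bacterial type III secretion systems and hands the signal to Nlrc4. Its probe set measured 6.81, 5.96 and 6.11 in control CD24+ cells, against 7.07, 6.88, 6.80 and 6.93 in control CD172a+ cells. The 2 CD24+ arrays of set 2 were low, and the CD24+ array of set 1 lay just above the lowest CD172a+ value. The difference was -0.63 (limma adjusted p = 0.14; exact permutation p = 0.0571), with -0.17 within array set 1 and -0.83 within array set 2. It passed when the array set was a block (-0.55, limma adjusted p = 0.0142), where leaving out control CD24+ replicate 2 or 3 lost the call (adjusted p up to 0.0692), and without the block it passed within array set 2 alone (adjusted p = 0.00806) and when control CD24+ replicate 1 was left out (adjusted p = 0.0206).

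Naip5, the flagellin receptor that also works through Nlrc4, gave no such pattern. It measured 8.15, 7.28 and 7.42 in control CD24+ cells, against 8.11, 7.78, 7.53 and 7.28 in control CD172a+ cells, and the groups overlapped throughout. The difference was -0.06 (95% interval -0.58 to 0.45; limma adjusted p = 0.958). Naip2 and Naip5 are neighbours on chromosome 13 with no protein-coding gene between them, as are Naip5 and Naip6, and the family's sequences are so alike that probes of one may bind another, so the value of any one of them is uncertain.

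Nlrp1b is a sensor, some forms of which are activated when the anthrax lethal factor protease cleaves them. It measured 7.50, 6.39 and 6.38 in control CD24+ cells, against 6.53, 6.76, 6.39 and 6.38 in control CD172a+ cells. The CD24+ array of set 1 was high and the other CD24+ arrays lay among the low CD172a+ values. The difference was 0.24 (95% interval -0.27 to 0.76; limma adjusted p = 0.762). It was 0.85 within array set 1, which rests on 1 CD24+ array, and 0.0019 within array set 2. Nlrp1a, its neighbour on chromosome 11, is a close paralogue, and the same caution about probes holds.

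Casp1 encodes the protease through which Nlrp3, Nlrc4 and Nlrp1b inflammasomes act. It measured 7.05, 6.64 and 7.21 in control CD24+ cells, against 8.32, 8.44, 7.76 and 8.43 in control CD172a+ cells. All CD24+ arrays lay below all CD172a+ arrays, and control CD172a+ replicate 3 was the lowest of its group. The difference was -1.27 (SE 0.175, 95% interval -1.65 to -0.88; limma adjusted p = 0.000949), or 2.41-fold lower, with -1.33 within array set 1 and -1.17 within array set 2. Without replicate 3 of control CD172a+ it was -1.43 (limma adjusted p = 0.000148), and with any 1 array left out it lay between -1.43 and -1.11.

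Casp4 is the neighbour of Casp1 on chromosome 9, with no protein-coding gene between them, and encodes caspase-11. In control CD24+ cells it measured 7.01, 7.93 and 8.12, against 8.08, 8.03, 7.96 and 8.34 in control CD172a+ cells. The CD24+ array of set 1 was the lowest of the 7, and the arrays of set 2 overlapped those of CD172a+ cells. The difference was -0.41 (95% interval -1.02 to 0.19; limma adjusted p = 0.581), with -1.05 within array set 1 and -0.12 within array set 2.

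Gsdmd, whose cleaved fragment forms the membrane pore of pyroptosis, measured 8.32, 7.99 and 7.74 in control CD24+ cells, against 8.07, 8.19, 7.90 and 6.65 in control CD172a+ cells. The groups overlapped, and control CD172a+ replicate 4 was more than 1 unit below its group. The difference was 0.31 (95% interval -0.55 to 1.17; limma adjusted p = 0.836). Il18, the caspase-1 substrate that drives interferon-γ production, measured 7.79, 7.09 and 7.62 in control CD24+ cells, against 7.47, 7.62, 7.04 and 8.06 in control CD172a+ cells. Its arrays overlapped as well, and the difference was -0.04 (95% interval -0.63 to 0.55; limma adjusted p = 0.975).

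With the array set as a block, 4 of the 9 members were lower in control CD24+ cells (Nlrc4, Nlrp3, Casp1 and Naip2), against 6.9% of all genes lower and 15.4% in either direction. The difference of a member between the 2 subsets was not shown to depend on the array set: the interaction passed for 0 of the 9 members. The difference changed most, as array set 2 minus array set 1, for Casp4 (0.93), Nlrp1b (-0.85) and Naip2 (-0.66). Array set 1 holds 1 control CD24+ array, so failing to pass does not show that a difference is the same in both sets. Over all genes that interaction passed for 2, and 1875 had an unadjusted p under 0.05.

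Markers of other cell types moved in the same comparison, and the means of each marker list are given as the range over the arrays of a group. Among 11 measured monocyte markers, 3 were lower in control CD24+ than in control CD172a+ cells (Csf1r, Adgre4 and Ace, named with the other markers below because they passed). The monocyte list mean was 6.67 to 7.15 in labelled Zeb2-deficient CD172a+, 6.87 to 6.96 in control CD24+ and 7.36 to 7.74 in control CD172a+ cells. The 11 neutrophil markers had 2 that were lower (Csf3r and Mmp9), with list means of 4.31 to 4.42 in labelled Zeb2-deficient CD172a+, 4.09 to 4.19 in control CD24+ and 4.24 to 4.69 in control CD172a+ cells, all below the median gene. Of 12 splenic macrophage markers 1 was lower (Adgre1), and list means were 5.50 to 6.87 in labelled Zeb2-deficient CD172a+, 5.05 to 5.59 in control CD24+ and 5.48 to 6.88 in control CD172a+ cells. B cell markers had 1 lower (Cd22) of 7, with list means of 5.68 to 6.32 in labelled Zeb2-deficient CD172a+, 4.83 to 5.06 in control CD24+ and 5.22 to 5.76 in control CD172a+ cells. Plasmacytoid dendritic cell markers had 1 higher (Ccr9) and 2 lower (Tcf4 and Spib) of 7, with list means of 6.93 to 7.26 in labelled Zeb2-deficient CD172a+, 6.54 to 6.66 in control CD24+ and 6.49 to 6.93 in control CD172a+ cells. T cell and NK cell markers had 0 of 6 and 0 of 7 that passed. The part of these cell types in the lower Nlrc4 and Casp1 was not tested.

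**Figure D2:**
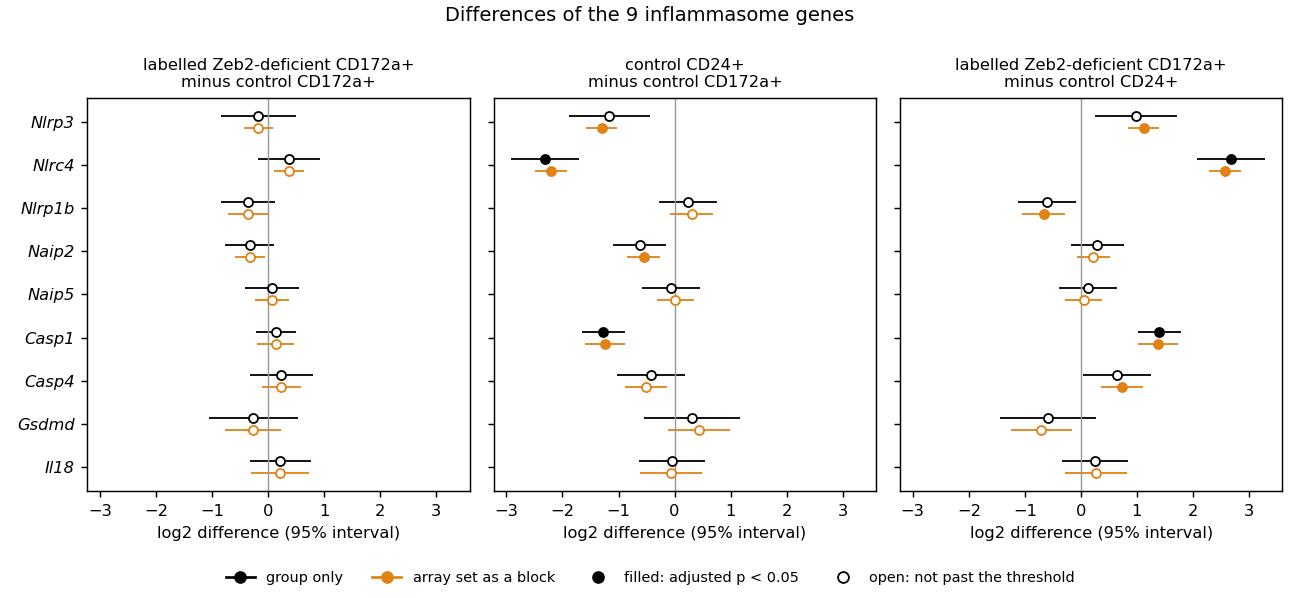
Log2 differences of the 9 genes in 3 comparisons, each named above its panel, with 95% intervals on the x axis; black is the fit with group alone, orange the fit with the array set as a block, and filled points passed limma adjusted p below 0.05. Only Nlrc4 and Casp1 are filled in both fits of both comparisons that involve control CD24+ cells, and no point is filled in the left panel.

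The comparison of labelled Zeb2-deficient with control CD172a+ cDCs asked whether the genotype changes the machinery within one subset. By limma 0 of the 9 members passed (0 at an unadjusted p under 0.05 as well), against 0.0502% of all genes, which is 10 genes. Of the markers of other cell types, 1 of 11 monocyte markers was lower in labelled Zeb2-deficient cells. The monocyte list mean was 6.67 to 7.15 there, against 7.36 to 7.74 in control CD172a+ cells. Higher were 1 of 7 plasmacytoid dendritic cell markers and 1 of 7 B cell markers. The part of these cell types in the members' values was not tested. The members' differences ran from -0.36 (Nlrp1b) to 0.37 (Nlrc4), with a median of 0.06 beside 0.006 over all genes, and each had a limma adjusted p of 0.998. With the array set as a block 0 of 9 passed again, while 0.145% of all genes passed. At an unadjusted p under 0.05 in that fit there were 3 of the 9 members and 1854 of all 19938 genes. Same-numbered arrays of these 2 groups deviate together, but so do other-numbered arrays of the same array set. A fit with the replicate number as a block called 26 of all genes and 0 members.

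Nlrc4 measured 7.72, 7.44, 6.80 and 6.93 in labelled Zeb2-deficient CD172a+ cells, with the 2 arrays of set 1 higher than those of set 2, as in the control CD172a+ cells above. The groups overlapped, and within each set the labelled Zeb2-deficient mean was higher, by 0.39 and 0.35. The difference of 0.37 had a 95% interval of -0.19 to 0.93, and it was 0.18 without control CD172a+ replicate 3. With the array set as a block the limma adjusted p was 0.338.

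Nlrp1b measured 6.17, 6.16, 6.18 and 6.11 in labelled Zeb2-deficient cells, against 6.53, 6.76, 6.39 and 6.38 in control CD172a+ cells. The 4 labelled Zeb2-deficient arrays were nearly level and all lay below the control arrays, so Nlrp1b was the 1 member of 9 whose groups did not overlap in this comparison, against 2.1% of all genes. The difference was -0.36 (95% interval -0.84 to 0.12), with -0.48 within array set 1 and -0.24 within array set 2. An exact two-sided permutation test gave p = 0.0286, the smallest possible with 4 against 4 arrays, before any adjustment for the number of genes. Groups of this size that do not overlap always give that value, so it adds nothing to the lack of overlap. The unadjusted limma p was 0.124.

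The other sensors overlapped between the genotypes. Nlrp3 measured 8.21, 8.08, 8.68 and 8.99 in labelled Zeb2-deficient cells, a difference of -0.18 from control CD172a+ cells (95% interval -0.85 to 0.50). Naip2 measured 6.96, 6.76, 6.32 and 6.31, a difference of -0.33 (95% interval -0.77 to 0.10) that was -0.11 within array set 1 and -0.55 within array set 2. For Naip5 the values were 8.02, 7.63, 7.63 and 7.68, and the difference was 0.06 (95% interval -0.41 to 0.54).

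Casp1 was as level as Nlrp1b, at 8.42, 8.35, 8.37 and 8.34 in labelled Zeb2-deficient cells. These values lay within the control CD172a+ range of 7.76 to 8.44, and the difference was 0.13 (95% interval -0.22 to 0.49), or -0.03 without control CD172a+ replicate 3. Casp4 measured 8.04, 7.92, 8.79 and 8.57 in labelled Zeb2-deficient cells, so the 2 arrays of set 2 lay above every control CD172a+ array and those of set 1 did not. The difference was 0.23 (95% interval -0.33 to 0.79), with -0.07 within array set 1 and 0.54 within array set 2.

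Gsdmd varied widely among arrays of one group, at 8.0, 7.75, 6.66 and 7.34 in labelled Zeb2-deficient cells, with array set 2 low. Its difference from control CD172a+ cells was -0.27 (95% interval -1.06 to 0.53). Il18 measured 7.58, 7.38, 8.27 and 7.80, a difference of 0.21 (95% interval -0.33 to 0.76) with -0.06 within array set 1 and 0.49 within array set 2. The interaction of the genotype difference with the array set passed for 0 members and for 0 of all genes, of which 1258 had an unadjusted p under 0.05. Of the members, Casp4 (limma interaction, unadjusted p = 0.0204) and Naip2 (0.0436) were under it too. A change of 1 unit in either direction lies outside the 95% interval of 8 members, and a fall of 1 unit lies inside that of Gsdmd.

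**Figure D3:**
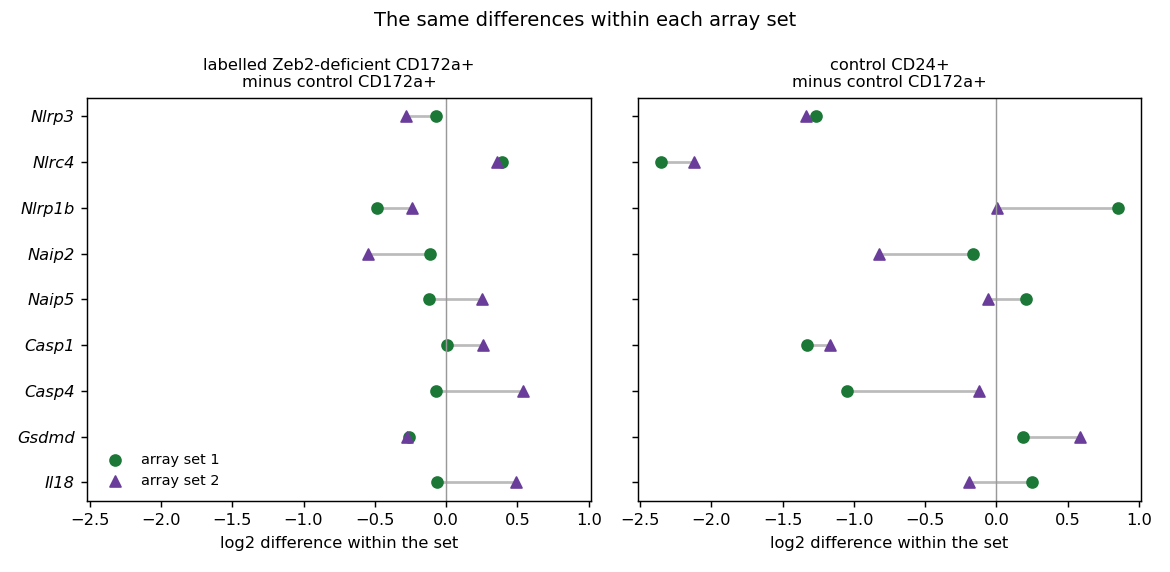
Log2 differences of the 9 genes computed within array set 1 (circles) and array set 2 (triangles), labelled Zeb2-deficient minus control CD172a+ on the left and control CD24+ minus control CD172a+ on the right; a line joins the 2 values of a gene. In the right panel Nlrc4 (-2.36 and -2.12), Nlrp3 (-1.27 and -1.34) and Casp1 (-1.33 and -1.17) lie close together below 0, while Nlrp1b (0.85 and 0.0019) and Casp4 (-1.05 and -0.12) are far apart.

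The comparison of labelled Zeb2-deficient CD172a+ with control CD24+ cDCs set the same subset difference against the other genotype. It shares the control CD24+ arrays with the first comparison, so it is no second, separate test of them. Nlrc4 and Casp1 were higher in labelled Zeb2-deficient CD172a+ cells, and they were the 2 of 9 members that passed, against 3.25% of all genes higher and 7.17% in either direction. Nlrc4 averaged 7.22 ± 0.43 (SD, n = 4) in labelled Zeb2-deficient CD172a+ cells and 4.54 ± 0.27 (SD, n = 3) in control CD24+ cells, a difference of 2.68 (95% interval 2.08 to 3.29; limma adjusted p = 0.000109). Casp1 averaged 8.37 ± 0.03 (SD, n = 4) in labelled Zeb2-deficient CD172a+ cells and 6.97 ± 0.29 (SD, n = 3) in control CD24+ cells, a difference of 1.40 (95% interval 1.02 to 1.79; limma adjusted p = 0.000464). In both array sets these differences kept their size, at 2.74 and 2.48 for Nlrc4 and 1.34 and 1.43 for Casp1. Markers of other cell types moved here too: in labelled Zeb2-deficient CD172a+ relative to control CD24+ cells, 3 of 7 B cell markers were higher (Ms4a1, Fcer2a and Cd22, with a list median of 1.03), and monocyte markers had 3 higher and 3 lower of 11. Plasmacytoid dendritic cell markers had 2 higher and 1 lower of 7, neutrophil markers 1 higher of 11, splenic macrophage markers 1 higher of 12, and T cell and NK cell markers 0 that passed. Their part in the higher Nlrc4 and Casp1 was not tested.

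Groups did not overlap for 4 of the 9 members in this comparison (Nlrp3, Nlrc4, Nlrp1b and Casp1), against 17.9% of all genes. Nlrp3 was 0.99 higher in labelled Zeb2-deficient CD172a+ cells (limma adjusted p = 0.117), and once the array set entered as a block it was 1.12 higher (adjusted p = 5.53e-05). Nlrp1b was 0.60 lower (limma adjusted p = 0.188), with -1.33 within array set 1 and -0.24 within array set 2. Casp4 differed by 0.65 (limma adjusted p = 0.238), Gsdmd by -0.58 (0.507), Naip2 by 0.29 (0.549), Il18 by 0.26 (0.705) and Naip5 by 0.13 (0.852). With the block 5 members passed, 4 higher (Nlrp3, Nlrc4, Casp1 and Casp4) and 1 lower (Nlrp1b), against 7.52% of all genes higher, 10.7% lower and 18.3% in either direction. Of these, Casp4 did not pass without control CD24+ replicate 1 (adjusted p = 0.0879), and Nlrp1b did not pass without that array or without labelled Zeb2-deficient replicate 1 or 2 (adjusted p up to 0.115).

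Over all 11 arrays the members differed in how far they ranged. The span from the lowest to the highest array was 3.42 for Nlrc4, 2.39 for Nlrp3, 1.79 for Casp1, 1.78 for Casp4, 1.67 for Gsdmd, 1.39 for Nlrp1b, 1.23 for Il18, 1.10 for Naip2 and 0.88 for Naip5. With group in the model, array set 2 read higher than array set 1 for Nlrp3 (0.80), Casp4 (0.55) and Il18 (0.10), and lower for Gsdmd (-0.76), Nlrc4 (-0.64), Naip5 (-0.47), Naip2 (-0.44), Nlrp1b (-0.38) and Casp1 (-0.15). For Gsdmd, Naip5 and Il18, which passed in 0 comparisons under either fit, no order of the 3 groups holds beyond the spread. Nlrc4 and Casp1 had the order labelled Zeb2-deficient CD172a+, control CD172a+, control CD24+ from high to low, where the first pair of neighbours did not differ beyond their spread and the second did. The means of Nlrp3 ran from control CD172a+ (8.66) through labelled Zeb2-deficient CD172a+ (8.49) to control CD24+ (7.50), and those of Naip2 ran the same way (6.92, 6.59 and 6.29), but no neighbours in either order passed without the block. Casp4 ran from labelled Zeb2-deficient CD172a+ (8.33) through control CD172a+ (8.10) to control CD24+ (7.69), and Nlrp1b from control CD24+ (6.76) through control CD172a+ (6.52) to labelled Zeb2-deficient CD172a+ (6.16), also with no neighbours that passed. The closest pair of members over the 11 arrays was Nlrc4 and Casp1 (Pearson r = 0.959), and the most opposed was Nlrp1b and Casp4 (r = -0.808). These correlations describe arrays that share the group structure and the array sets. Among all other genes, the patterns most like Nlrc4 over the 11 arrays were those of Lyst, a regulator of lysosome traffic (r = 0.990), and Ffar2, a receptor for short-chain fatty acids (r = 0.990). Those most like Casp1 were Slamf6, a receptor of lymphocytes and myeloid cells (r = 0.991), and Klrd1, which encodes CD94 (r = 0.990).

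The other genes of the pathway were followed in 5 lists, of which 50 of 59 genes were measured. In control CD24+ relative to control CD172a+ cells, 12 of the 50 passed, 4 higher and 8 lower, where 6.41% of all genes passed in either direction and 3.16% were lower, with a median difference of -0.11 over the 50. In labelled Zeb2-deficient relative to control CD172a+ cells 0 of 50 passed, 0 had an unadjusted p under 0.05, and the median was 0.01.

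Other inflammasome sensors had 2 of 6 measured genes lower in control CD24+ cells and 0 higher. Nlrp10, an NLR protein without leucine-rich repeats, measured 4.19, 4.45 and 4.11 in control CD24+ cells, against 5.49, 5.73, 5.40 and 5.43 in control CD172a+ cells (difference -1.26; limma adjusted p = 0.000651). Mefv, which encodes the sensor pyrin, measured 7.58, 7.14 and 7.57 in control CD24+ cells, against 8.24, 8.52, 8.04 and 8.29 in control CD172a+ cells (difference -0.84; limma adjusted p = 0.00403). Neither gene overlapped between the subsets, and Nlrp10 lay near or under the level of the median gene in both. Aim2, the sensor of cytosolic DNA, averaged 9.75 ± 0.26 (SD, n = 3) in control CD24+ cells and 10.05 ± 0.30 (SD, n = 4) in control CD172a+ cells, which did not pass (difference -0.30; limma adjusted p = 0.799).

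Among 7 other NLR family genes 1 was lower and 0 were higher. That gene was Nod1, the sensor of peptidoglycan fragments, at 7.41, 5.50 and 5.30 in control CD24+ cells, against 8.98, 9.06, 8.25 and 7.81 in control CD172a+ cells (difference -2.45; limma adjusted p = 0.027). The CD24+ array of set 1 was the highest of its group and still below every CD172a+ array.

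Adaptors, other caspases and genes of lytic death had 0 of 7 that passed. Pycard, which encodes the adaptor ASC, measured 9.07, 8.45 and 8.46 in control CD24+ cells, against 9.10, 9.01, 7.73 and 9.18 in control CD172a+ cells (difference -0.10, 95% interval -0.80 to 0.61; limma adjusted p = 0.954). Control CD172a+ replicate 3 was low and the other arrays overlapped.

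Genes of inflammasome licensing and regulation had 3 of 19 higher and 2 lower in control CD24+ cells. The higher ones were Irf8, a transcription factor that cDC1 need to develop (difference 3.07; limma adjusted p = 0.00146), Serpinb1a, an inhibitor of neutrophil serine proteases (1.41; 0.0199), and Irf1, an interferon-induced transcription factor (0.69; 0.0367). Irf8 is also among the cDC1 markers. The lower ones were Panx1, a membrane channel that releases ATP (-0.85; 0.000521), and Gbp7, an interferon-induced GTPase (-1.39; 0.00298). Irf8 measured 10.67, 8.85 and 8.72 in control CD24+ cells, against 5.91, 5.74, 6.80 and 6.94 in control CD172a+ cells, and its difference was 4.85 within array set 1 and 1.92 within array set 2.

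IL-1 family cytokines and receptors had 1 of 11 higher and 3 lower in control CD24+ cells. Il1r2, a decoy receptor for interleukin-1, averaged 8.08 ± 1.41 (SD, n = 3) in control CD24+ cells and 11.16 ± 0.34 (SD, n = 4) in control CD172a+ cells (difference -3.08; limma adjusted p = 0.00514). Il1rn, the interleukin-1 receptor antagonist, was lower by a difference of -1.72 (limma adjusted p = 0.0135), and Il18rap, the accessory chain of the interleukin-18 receptor, by -0.51 (0.035). Il1rap, the shared co-receptor of the interleukin-1 family, was higher by 1.00 (limma adjusted p = 0.0475). The cytokines themselves did not pass: Il1b averaged 10.91 ± 0.12 (SD, n = 3) in control CD24+ cells and 11.36 ± 0.48 (SD, n = 4) in control CD172a+ cells (limma adjusted p = 0.368). For Il1a the averages were 4.06 ± 0.54 (SD, n = 3) in control CD24+ cells and 4.79 ± 1.73 (SD, n = 4) in control CD172a+ cells, which did not pass, where array set 2 of control CD172a+ cells read 5.56 and 6.87 and array set 1 read 3.46 and 3.27.

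In labelled Zeb2-deficient CD172a+ relative to control CD24+ cells, 10 of the 50 pathway genes passed, 8 higher and 2 lower, where 7.17% of all genes passed in either direction and 3.25% were higher. Higher were Nlrp10 (1.12), Mefv (0.57), Nod1 (2.14), Panx1 (0.71), Gbp7 (1.41), Il1r2 (2.98), Il1rn (1.55) and Il18rap (0.61), as log2 differences. Lower were Irf8 (-3.01) and Serpinb1a (-1.27). These values rest on the same control CD24+ arrays as those above.

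**Figure D4:**
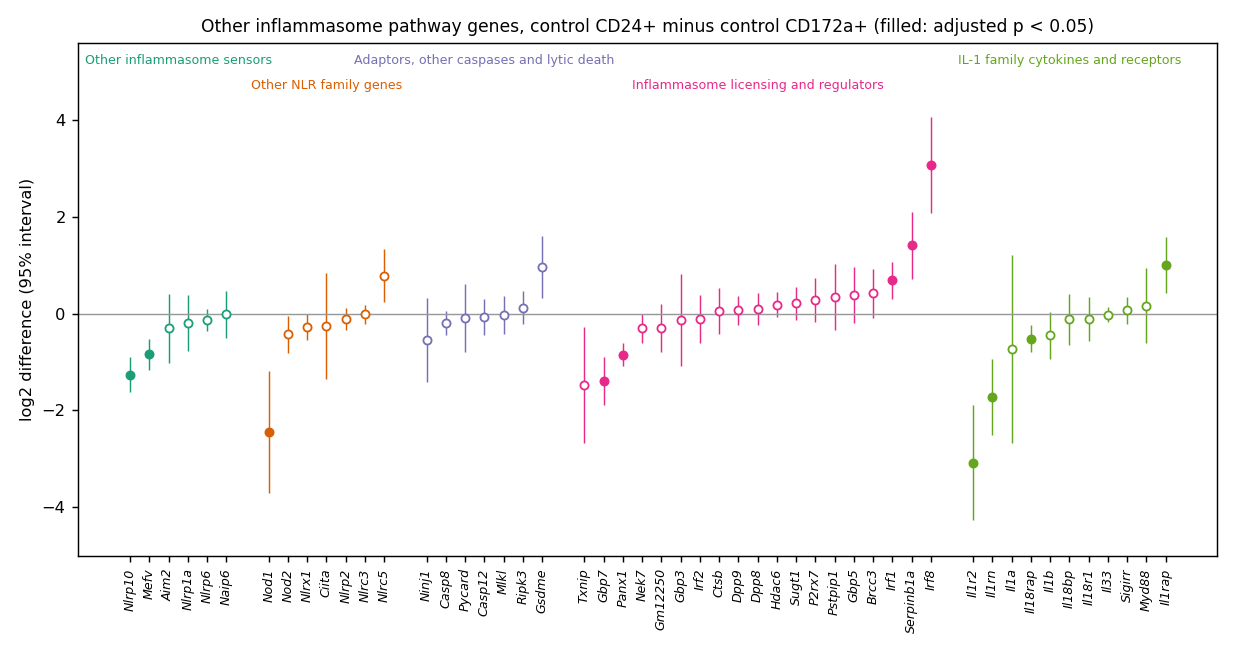
Log2 differences (y axis, with 95% intervals) of the 50 other pathway genes, control CD24+ minus control CD172a+ cDCs, grouped by list and sorted within it; filled points passed limma adjusted p below 0.05. Nod1 (-2.45) and Il1r2 (-3.08) lie lowest and Irf8 (3.07) highest, and no gene of the adaptor list, Pycard included, is filled.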

How the data were processed

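The authors deposited log2 expression per probe set, and the submitters' processing notes name RMA. That method subtracts background, quantile-normalises arrays and summarises probes. Software version, probe filter and genome build: not given in the sources used here. Array medians lay between 5.45 and 5.52. Of 30177 probe sets, 21789 have 1 gene symbol, 1621 several and 6767 none in the platform annotation, and 21698 of the first matched RefSeq (GRCm38.p6) by Entrez ID, with 0 symbols updated. The probe set with the highest mean stood for each of 19938 genes, of which 999 had several. Depth has no meaning for arrays, and their number limits the precision.

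Groups came from the sample titles. The main test was limma 3.58.1 in R 4.3.3 (lmFit and eBayes over all 11 arrays with group alone), two-sided, with Benjamini-Hochberg adjustment over all genes of each of 3 comparisons and a threshold of 0.05. It was also run on simulated data with independent spread on each array. Those data held no array sets, so they do not check the test for spread that arrays share. Single values were also compared by an exact permutation test of the array labels. The alternatives were the array set as a block or fitted alone, the replicate number as a block, only the groups compared, further quantile normalization, an intensity trend with robust variances, dim genes left out, the mean of all probe sets, and each array left out. Leaving out each array with the array set as a block, and the interaction of the subset difference with the array set, were chosen after seeing the data. The array sets themselves were found from the values, so every fit that uses them rests on these data.

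Replicate numbers, taken from the titles, were checked on deviations from group means. Between labelled Zeb2-deficient and control CD172a+ arrays, same-numbered pairs correlated at 0.442 to 0.68, above the limit of 0.1 set for a possible pairing. The main test used no pairing, and the replicate number entered only as a block in an alternative fit. All 4 pairs shared an array set, and other-numbered arrays of the same set correlated as highly (0.496 to 0.699). These correlations therefore do not show pairing by number beyond the shared array set. Between control CD24+ and control CD172a+ arrays, 1 of 3 pairs, in different sets, correlated at -0.445, so these were not paired.

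The 9 members, the 5 pathway lists and the 10 marker lists were chosen with earlier results of these data known. Named genes were all members, up to 4 genes per pathway list, direction and comparison with the smallest p among those that passed, Pycard, Aim2, Il1b, Il1a, Irf8 and Zeb2, and the 2 genes most correlated with each member that passed. The values of other marker genes are not printed.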

Additional observations from a re-analysis of the deposited data

Results flagged for a closer look

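In the groups of 4 arrays, a highest or lowest array was marked where its gap to the nearest other array was large for the range of the group (Dixon's test at 95%). Over 52 such groups of 26 genes chance alone marks about 1 in 20, and 5 were marked. Naip5 on labelled Zeb2-deficient replicate 1 read 8.02, with the other 3 arrays between 7.63 and 7.68. Il1rap on labelled Zeb2-deficient replicate 3 read 5.07, with the others between 4.78 and 4.80. On control CD172a+ replicate 3, the array that stood apart on the second component, Pycard read 7.73 (others 9.01 to 9.18) and Panx1 read 6.66 (others 6.98 to 7.04). Zeb2 on control CD172a+ replicate 4 read 8.61, with the others between 8.23 and 8.26.

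The subset difference of Irf8 differed between the array sets by -2.93, as array set 2 minus array set 1 (limma interaction adjusted p = 0.0334). Control CD24+ cells were higher than control CD172a+ cells in both sets.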

How the results depend on the processing

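In labelled Zeb2-deficient minus control CD172a+, 0 of 9 members and 0 of 50 pathway genes passed under every alternative run. All genes called, 10 in the main fit, were 29 under the array-set block, 0 within array set 1 (2260 at an unadjusted p under 0.05), 26 with the replicate block, 5 with only these groups, and 7 to 11 with an array left out. With an array left out under the array-set block they were 14 to 72: 72 without control CD24+ replicate 1, and 14, 15, 19 and 17 without labelled Zeb2-deficient replicate 1 or 2 or control CD172a+ replicate 1 or 2. In control CD24+ minus control CD172a+, members called (2) were 4 under the array-set block, 4 within array set 2 and 1 with the replicate block. They were 2 to 3 with an array left out, and 3 to 5 with an array left out under the array-set block. Under the replicate block, which compares arrays that are not paired, Nlrc4 passed (-2.35, limma adjusted p = 0.0108) and Casp1 did not (-1.21, adjusted p = 0.0745). Casp1 passed in every other alternative run. Pathway genes called (12) were 6 with the replicate block and 7 to 11 with an array left out, the 7 without control CD24+ replicate 2. All genes called (1278 of 19938) were 3080 under the array-set block, 1753 within array set 2 and 762 with the replicate block. With an array left out they were 874 to 1220. In labelled Zeb2-deficient CD172a+ minus control CD24+, members called (2) were 5 under the array-set block and 2 with any array left out. They were 3 to 6 with an array left out under the array-set block, the 3 without control CD24+ replicate 1. Pathway genes called (10) were 21 under the array-set block and 6 to 10 with an array left out, the 6 without labelled Zeb2-deficient replicate 4 or control CD24+ replicate 2 or 3. All genes called (1429) were 3641 under the array-set block and 985 to 1533 with an array left out. Nlrp3 passed in control CD24+ minus control CD172a+ with dim genes left out (adjusted p = 0.0429), where fewer genes were tested. The cause of the other changes was not tested. No called member difference changed sign. Fits within array set 1 hold 1 control CD24+ array, assumed to vary like the other groups. Counts of genes called within that set are therefore not given for comparisons with control CD24+ cells. Further quantile normalization kept every member on its side of the threshold.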
